A study of Bos taurus with 6 samples.

Results

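The genes described here encode the proteasome, its activators and the chaperones that assemble it. They were taken as the probe sets whose gene symbol began with PSM, followed by a letter from A to G and a number, with the brightest probe set of each gene used. This gave 39 genes, on 45 probe sets, of 9155 genes with a name on the array. A further 9 bovine genes with such symbols in RefSeq (PSMA2, PSMA8, PSMB11, PSMD3, PSMD7, PSMD8, PSMD12, PSME3 and PSMG4) had no named probe set and were not analysed here. Total RNA came from bovine bone marrow mesenchymal stem cells (MSCs) in agarose hydrogel, with 1 Affymetrix array for each of 6 conditions. Without transforming growth factor beta 3 (TGF-beta3), a growth factor used to turn MSCs into cartilage-like cells, constructs were kept in defined medium for 3, 21 or 42 days. With TGF-beta3 they were kept for 21 or 42 days, or for 21 days unloaded followed by 21 days of dynamic compression (the loaded construct, day 42). No genotype, animal age or number of donors is given in the sources used here.

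The proteasome degrades proteins that cells have tagged with ubiquitin. Its 20S core is a barrel of alpha rings, which gate the entrance, and beta rings, which carry the catalytic sites. The 19S particle caps the barrel: a ring of ATPases unfolds the substrate, and non-ATPase subunits bind and remove ubiquitin. Under interferon, cells replace the standard catalytic subunits PSMB5, PSMB6 and PSMB7 with the immunoproteasome subunits PSMB8, PSMB9 and PSMB10, which alter the peptides made for MHC class I. Cells that lay down much matrix, such as chondrocytes, also send misfolded secretory proteins to the proteasome.

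Signals are the authors' linear values, each array scaled to 1 common mean. Values under a signal of 15.1 were set to that floor before log2 was taken. The arrays stood apart in their hybridisation spikes, which are foreign transcripts added in fixed amounts. Their median signal reached 7304 in the unloaded and 5823 in the loaded construct kept with TGF-beta3 for 42 days, against 2618 to 3727 elsewhere. For GAPDH the ratio of 3 prime to 5 prime signal, a measure of RNA integrity and amplification, ran from 1.51 to 2.27, that of cyclophilin from 4.86 to 7.52 and that of eIF4E from 5.08 to 9.10. The GAPDH and eIF4E ratios were both highest on the day 42 array without TGF-beta3. The marrow stromal markers NT5E and CD44 were above the floor on every array, with signals of 379 to 1787 and 137 to 925, while LEPR was under it on every array. Of 6 stromal markers tested with TGF-beta3, NT5E rose and CD44, VCAM1 and CXCL12 fell by limma, while 4 of 4 cartilage genes rose and 5 of 5 adipocyte genes fell. The endothelial markers CDH5, VWF and KDR were under the floor on every array, and PECAM1 was above it on 1, at 20.8. No condition had a replicate, so precision is limited by how few arrays there are. In these cultures fewer cells of a type and less RNA per cell cannot be told apart.

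The proteasome genes as a group were among the steadier bright genes of the cultures. All 39 were above the floor on at least 4 arrays, and their median signal lay between 639 and 830.2 on the 6 arrays. Of the 35 with a signal over 100 on every array, 23 varied by less than 2-fold from their lowest to their highest array (65.7%), beside 39.8% of the 3087 genes as bright on every array. The smallest range was that of the alpha subunit PSMA7, with 1.25-fold between its extremes, followed by the ATPase PSMC2 with 1.30-fold. The widest were those of PSMB8 (7.66-fold), the ubiquitin receptor PSMD4 (4.43-fold) and PSMB9 (at least 4.27-fold).

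**Figure D1:**
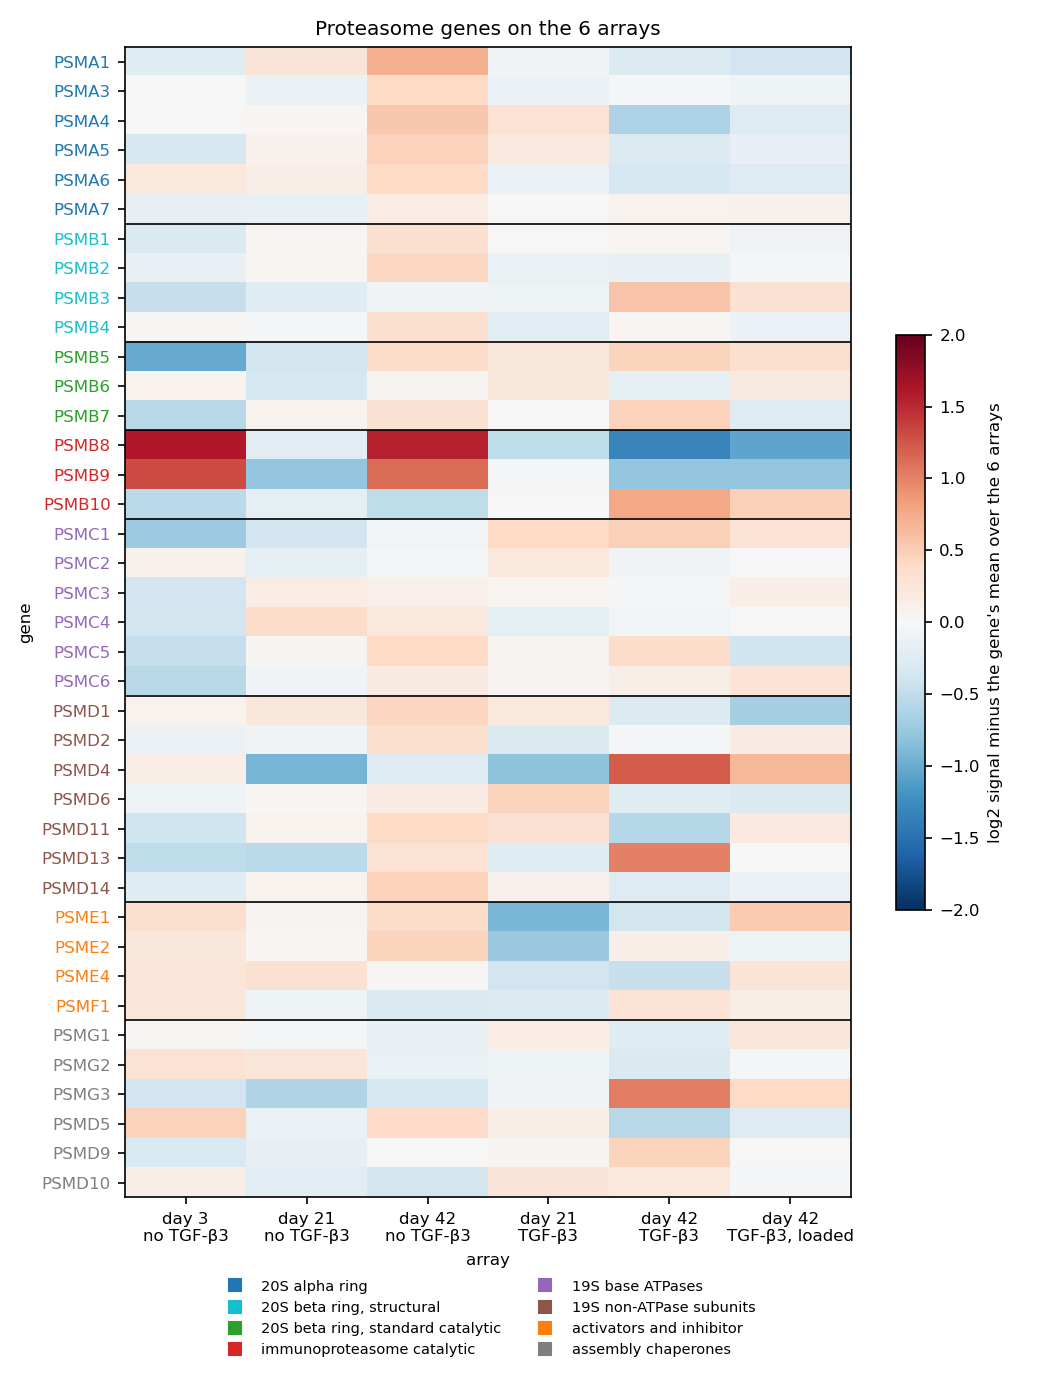
Log2 signal of the 39 proteasome genes on the 6 arrays (columns), each minus the gene's own mean over the arrays, signals below the floor being drawn at the floor; red is above and blue below that mean, and gene names are coloured by role. PSMB8 and PSMB9 are red at day 3 and at day 42 without TGF-beta3, while most core and 19S genes stay pale.

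TGF-beta3 was tested over days 21 and 42 with limma, on 2 arrays with it and 2 without, with a term for day. None of the 39 genes rose or fell at a Benjamini-Hochberg adjusted p under 0.05 by limma, whereas of 6835 genes tested 7.11% rose and 7.70% fell, 14.8% in all. At an unadjusted p under 0.05 there were 2, PSME1 and PSMB8, both lower, beside 28.3% of all genes tested. The members' median log2 difference was -0.16, beside 0.13 for all genes. With the floor at a signal of 100, where 22.0% of 4404 genes were called, 1 of 37 members rose (PSMG3) and 1 fell (PSME1). Under quantile normalization PSME1 alone fell, and with the arrays centred on their spikes PSMB8 alone fell. The fit has 1 residual degree of freedom and leans on a spread pooled over probe sets. With 1 array per condition, that spread is the change in the TGF-beta3 difference between the days. It is not a spread between replicates, and the p-values and standard errors of the fit rest on it. When the day 21 array with TGF-beta3 was left out, and with it the term for day, the members' median was log2 -0.15, beside 0.11 for all genes. When the unloaded day 42 one was left out in the same way, it was -0.12, beside 0.05. Each of these fits sets 1 array with TGF-beta3 against 2 without, so TGF-beta3 and day are mixed. Only their sizes are given.

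By size, the members differed little at day 21 and more at day 42. At day 21 none of the 39 was at least 2-fold higher or lower with TGF-beta3, where 14.3% of 6938 genes were higher and 14.0% lower. Among bright genes, with a signal over 100 on both arrays, this was 0 of 35 members beside 18.1% of 3584 genes. Their median log2 difference was 0.11, beside 0.09 for all genes and 0.27 for the spikes. At day 42, 3 were at least 2-fold higher and 3 lower, where 25.5% of 7566 genes were higher and 15.7% lower. Among bright genes 4 of 37 members passed the size rule in either direction at day 42, beside 26.5% of 3489 genes. The members' median log2 difference was -0.26 there, beside 0.22 for all genes and 1.39 for the spikes. When the loaded array replaced the unloaded one, a choice made after seeing the data, the median was -0.20, beside 0.21 for all genes. None of the members was then at least 2-fold higher and 4 were lower. The share of all genes is not given, so these counts do not set the members apart from other genes.

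Under the authors' scaling the members did not follow the spikes and the ribosomal protein genes on the day 42 array with TGF-beta3. Neither did the median of all genes, at log2 0.22. The 63 ribosomal protein genes compared there, bright genes of another large complex, shifted by a median of log2 1.25, beside the 1.39 of the spikes. The members' median minus that of the spikes was log2 -1.65, and with arrays centred on the spikes 30 of 39 were at least 2-fold lower. So were 51.8% of all genes under that centring. Relative to the median of all genes, the members' median was -0.49 under the authors' scaling, -0.29 under quantile normalization, -0.53 under median centring and -0.53 under spike centring. Those genes include dim ones: among bright genes the members' median was -0.23 beside 0.03, a gap of -0.26, and with the floor at 100 the gap was -0.30. Under quantile normalization the median of the ribosomal protein genes was 0.10, beside -0.18 for the members. Under median centring these were 0.66 and -0.85. The part of the spike shift in the members' differences was not tested.

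**Figure D2:**
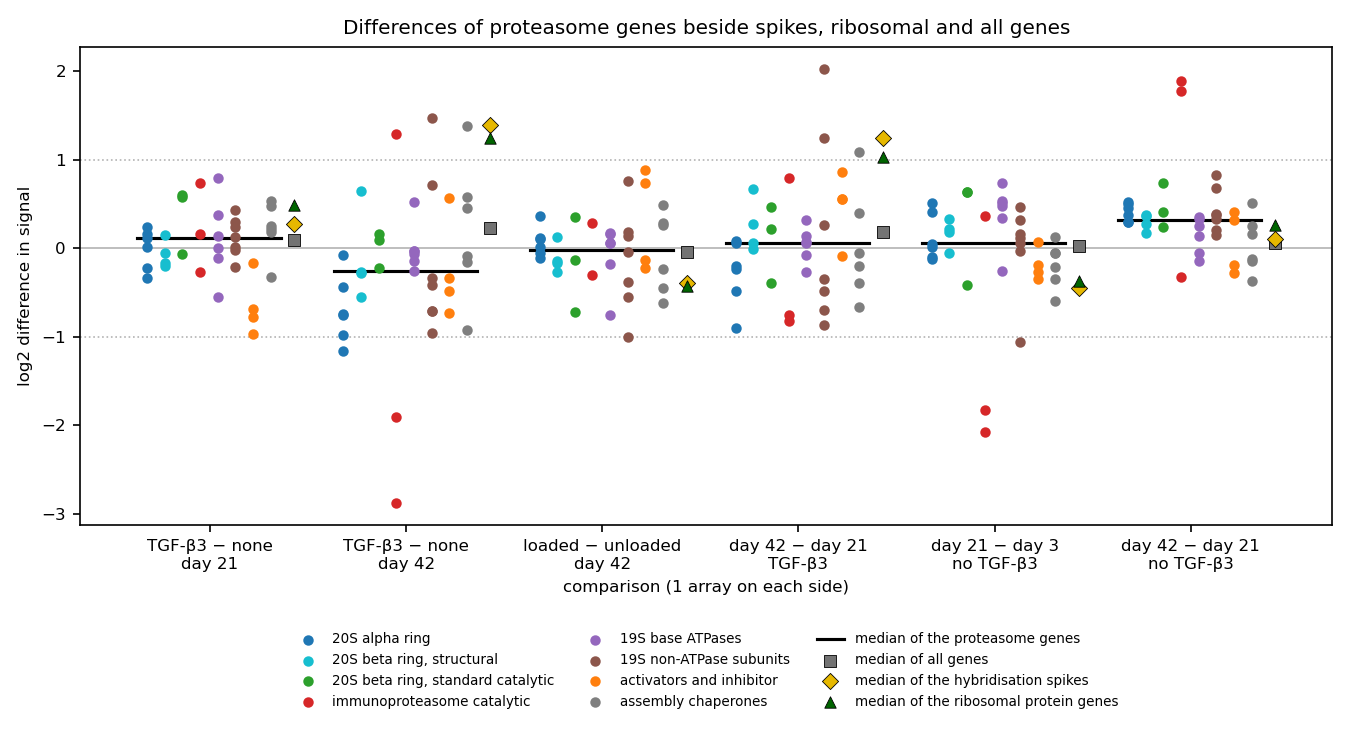
Log2 difference of each proteasome gene (dots, coloured by role) in the 6 comparisons of 1 array against 1 array, with the members' median (black line) and the medians of all genes (square), hybridisation spikes (diamond) and ribosomal protein genes (triangle); dotted lines mark a 2-fold difference. With TGF-beta3 against none at day 42, and at day 42 against day 21 with TGF-beta3, spikes and ribosomal genes lie above log2 1 while the proteasome median lies at -0.26 and 0.06.

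The alpha ring gates the core, and its 6 measured genes were all lower with TGF-beta3 at day 42 (median log2 -0.75, from -1.16 to -0.08). Of 7566 genes, 59.0% were above 0 in that comparison. All 6 alpha genes were also lower there under quantile normalization, median centring and spike centring, with medians of -0.82, -1.34 and -2.07. The medians of all genes under these were 0.11, -0.32 and -1.06, and the same 2 arrays are compared each time. At day 21 4 of the 6 were above 0 and the median was 0.06. PSMA4 had signals of 802 at day 3, 827 and 1167 at days 21 and 42 without TGF-beta3, 978 and 523 at days 21 and 42 with it, and 673 in the loaded construct. It was lowest on the unloaded day 42 array with TGF-beta3, where it was 2.23-fold lower than without, and the arrays with and without TGF-beta3 overlapped. PSMA1 had signals of 595, 845 and 1156 at days 3, 21 and 42 without TGF-beta3, against 669 and 583 at days 21 and 42 with it and 538 when loaded. Here the day 21 and day 42 arrays without TGF-beta3 lay above all 3 with it, and the mean log2 difference over both days was -0.66 ± 0.34 (standard error, adjusted p = 0.214 by limma). PSMA7 differed least, by log2 -0.08 at day 42, with signals of 2772 to 3452 over the 6 arrays.

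All 6 alpha genes were highest on the day 42 array without TGF-beta3. With them, 15 of the 39 members were highest there, and the share of all genes highest there was not counted. From day 21 to day 42 without TGF-beta3 the 6 alpha genes were higher by log2 0.29 to 0.53, on a pair of arrays whose spikes differed by 0.10. Over all members, 31 of 39 were above 0 in that comparison, with a median of log2 0.32 beside 0.06 for all genes, of which 54.3% were above 0. Of bright members 27 of 35 were above 0, with a median of 0.30, beside 61.4% of 3812 bright genes with a median of 0.11. This is the array with the highest GAPDH and eIF4E ratios of 3 prime to 5 prime signal (2.27 and 9.10), whose part in the shift was not tested. Only PSMB8 and PSMB9 reached 2-fold higher and none was 2-fold lower, where 3.83% of 6684 genes were higher and 5.49% lower. Of the 35 bright members none passed in either direction, beside 2.36% of 3812 genes. The shift was thus spread over most members and, PSMB8 and PSMB9 aside, under 2-fold in each. The members' median was 0.21 under quantile normalization, 0.69 under median centring and 0.16 under spike centring, where the median of all genes was 0.11, 0.41 and -0.11.

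The structural beta subunits PSMB1, PSMB2 and PSMB4 stayed within 1.52-fold over the 6 arrays. PSMB3 departed from them, with signals of 1208, 1403 and 1583 at days 3, 21 and 42 without TGF-beta3, 1553 and 2466 at days 21 and 42 with it and 2048 when loaded. It was highest on both day 42 arrays with TGF-beta3, by log2 0.64 over the array without it at that day, a difference smaller than that of the spikes. PSMB2 had a second probe set, whose TGF-beta3 differences of log2 -0.38 and -1.04 at days 21 and 42 were larger than the -0.17 and -0.55 of the brightest one.

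The standard catalytic subunits did not move as 1 unit. PSMB5, the chymotrypsin-like subunit, had signals of 442 at day 3, 684 and 1136 at days 21 and 42 without TGF-beta3, 1040.2 and 1210.4 with it, and 1106 when loaded. It was lowest at day 3 and roughly level on the 4 arrays other than day 3 and day 21 without TGF-beta3. It was higher with TGF-beta3 by 1.52-fold at day 21 but by 1.07-fold at day 42. PSMB6, the caspase-like subunit, had signals of 767, 574 and 760.5 at days 3, 21 and 42 without TGF-beta3, 857 and 649.6 with it, and 828 when loaded. Its TGF-beta3 difference was log2 0.58 at day 21 and -0.23 at day 42. PSMB7, the trypsin-like subunit, had signals of 1587, 2454 and 2885 without TGF-beta3, 2338 and 3222 with it, and 1958 when loaded. Compression went with a 1.65-fold lower PSMB7 signal, while PSMB5 differed by 1.09-fold and PSMB6 was 1.27-fold higher.

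The immunoproteasome subunits held the largest differences among the members. PSMB8, the interferon-induced counterpart of PSMB5, had a signal of 145.7 at day 3, 40.9 and 139.9 at days 21 and 42 without TGF-beta3, 33.8 and 19.01 at days 21 and 42 with it, and 23.1 when loaded. It was high on the day 3 array and the day 42 array without TGF-beta3 and low on the other 4. It was 3.56-fold lower at day 21 than at day 3, 3.42-fold higher at day 42 than at day 21 without TGF-beta3, and 7.36-fold lower with TGF-beta3 than without at day 42. At day 21 it was 1.21-fold lower with TGF-beta3. Its mean log2 difference over both days was -1.58 ± 0.74 (standard error, adjusted p = 0.157 by limma).

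PSMB9, the counterpart of PSMB6, shared with PSMB8 its highest pair of arrays, at dim signals, but not the order at day 21. It had 64.6 at day 3, 15.3 and 56.7 at days 21 and 42 without TGF-beta3, 25.6 at day 21 with it, and values under the floor of 15.1 on both day 42 arrays with it. It was 4.22-fold lower at day 21 than at day 3, 3.71-fold higher at day 42 than at day 21 without TGF-beta3, and at least 3.74-fold lower with TGF-beta3 at day 42. At day 21 it was higher with TGF-beta3 by 1.67-fold, between values near the floor. With the floor at a signal of 55.5 the day 42 difference was -0.03, and with the floor at 100 no array was above it.

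PSMB10, the counterpart of PSMB7, did not share this order. Its signals were 207 at day 3, 267 and 212 at days 21 and 42 without TGF-beta3, 299 and 516 at days 21 and 42 with it, and 419 when loaded. All 3 arrays with TGF-beta3 lay above all 3 without it. Here and for the genes below, the share of all genes separated in this way was not counted. The 3 arrays on each side are also not matched in day or loading. With TGF-beta3 PSMB10 was higher by 2.43-fold at day 42 and 1.12-fold at day 21, and its mean log2 difference was 0.72 ± 0.40 (standard error, adjusted p = 0.253 by limma). With the arrays centred on their spikes the day 42 difference was -0.036, so its direction there depends on the scaling.

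**Figure D3:**
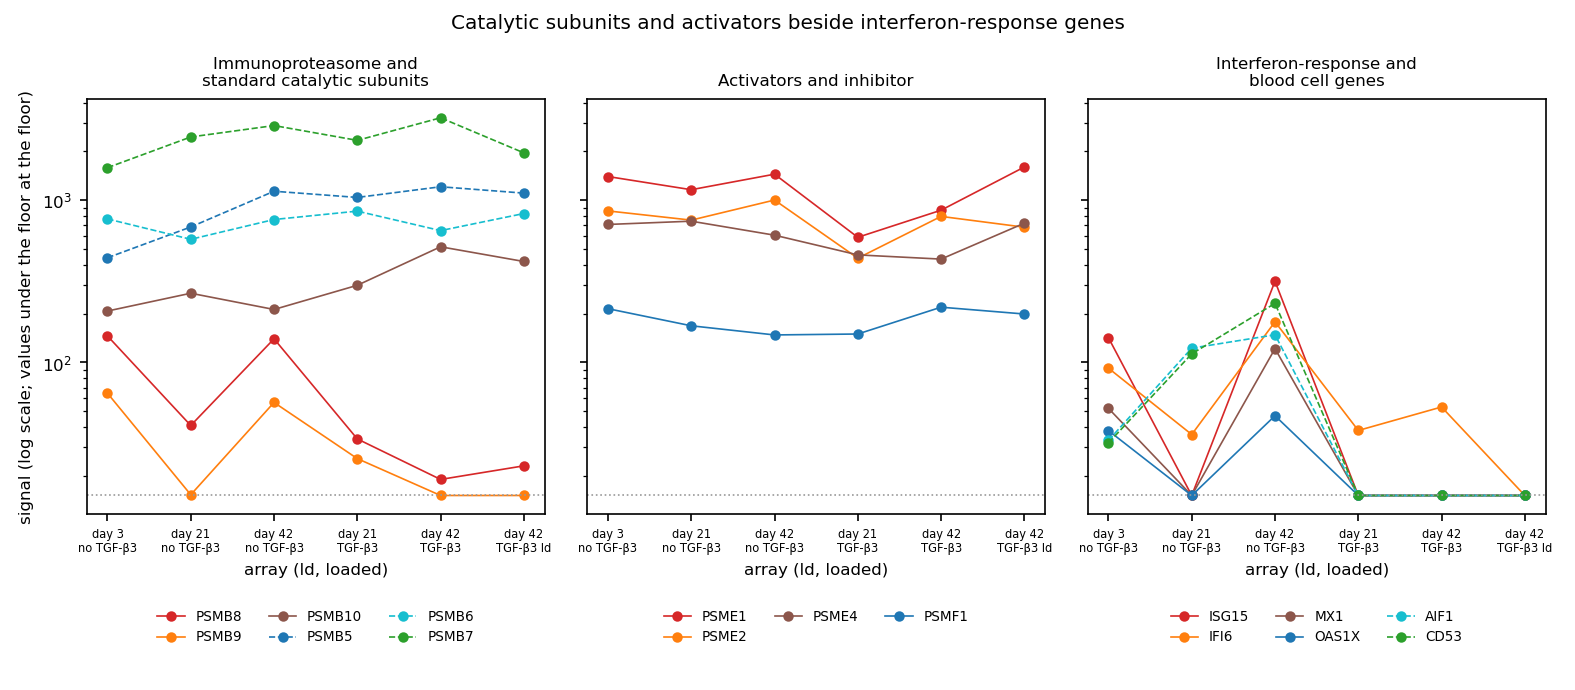
Signal on the 6 arrays (log axis, values under the floor drawn at the dotted floor line) of catalytic subunits, of activators and the inhibitor, and of interferon-response and blood cell genes; lines only join the points of a gene. PSMB8 and PSMB9 share their high arrays, day 3 and day 42 without TGF-beta3, with ISG15, IFI6, MX1 and OAS1X. AIF1 and CD53 are high at days 21 and 42 without TGF-beta3 and lower at day 3.

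The arrays on which PSMB8 and PSMB9 were high were those on which interferon-response genes were high. The ubiquitin-like protein ISG15 had signals of 142 at day 3 and 317 at day 42 without TGF-beta3 and was under the floor on the other 4 arrays. The antiviral GTPase MX1 had 52.1 and 122 and was under the floor on the other 4. Of 11 class I antigen processing and interferon genes above the floor on at least 1 array, 4 (ISG15, MX1, IFI6 and OAS1X) had these arrays as their highest pair with both above the floor. So had 4.75% of 8020 genes and, of the 37 members other than PSMB8 and PSMB9, 4 (PSMA3, PSMA6, PSME2 and PSMD5). The pattern was taken from PSMB8 and PSMB9 after their values were seen, so these counts describe and do not test it. In the RefSeq annotation of ARS-UCD2.0 the peptide transporter TAP1 is the only protein-coding gene between PSMB8 and PSMB9. The TAP1 probe set was dim, with signals of 19.1 at day 3, 18.4 at day 42 without TGF-beta3 and 22.7 at day 42 with it, and under the floor on the other 3 arrays. TAP2, its partner, had signals of 293, 183 and 140.0 at days 3, 21 and 42 without TGF-beta3, 101 and 38.4 with it and 75.04 when loaded. All 3 arrays with TGF-beta3 lay below all 3 without it. Of 7 genes of this list tested with TGF-beta3 none rose or fell by limma, and 3 (TAP2, ERAP1 and ERAP2) were lower at an unadjusted p under 0.05.

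Blood cell markers differed with TGF-beta3 as well, most but not all of them lower. The summed signal of 8 blood and macrophage markers was 211 at day 3, 428 and 585 at days 21 and 42 without TGF-beta3, 63.4 and 139 with it and 86.7 when loaded. Without TGF-beta3 4, 5 and 5 of the 8 were above the floor at days 3, 21 and 42, while with it 2 and 4 were at days 21 and 42 and 2 when loaded. Of the 6 tested AIF1, CD53 and CD68 fell with TGF-beta3 by limma and none rose, and CD34 was above the floor only when loaded, at 17.2. Of those above the floor on at least 1 array of the pair, 5 of 6 were lower with TGF-beta3 at day 21 and 5 of 7 at day 42. CSF1R was higher by log2 0.21 and 0.95 at days 21 and 42, and ITGB2 by 0.48 at day 42, all at dim signals. The summed signal was higher at day 21 without TGF-beta3 than at day 3, while PSMB8 and PSMB9 were higher at day 3. Of the 5 markers above the floor on at least 1 of those arrays, 4 were higher at day 21. The other, CD14, was higher at day 3, at 83.9 against 53.4. The part of blood cells in the PSMB8 and PSMB9 differences was not tested.

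The 19S base is the ring of 6 ATPases that unfolds substrates. On the brightest probe sets none of the 6 reached 2-fold in any of the 6 comparisons, and with TGF-beta3 their median log2 difference was 0.07 at day 21 and -0.05 at day 42. PSMC1 (Rpt2), which helps open the gate of the core, had signals of 339.9 at day 3, 432 and 544 at days 21 and 42 without TGF-beta3, 746 and 779.8 with it and 689.6 when loaded. All 3 arrays with TGF-beta3 lay above all 3 without it. It was higher by 1.73-fold at day 21 and 1.43-fold at day 42, with a mean log2 difference of 0.66 ± 0.35 (standard error, adjusted p = 0.228 by limma). PSMC5 (Rpt6) had signals of 439 at day 3, 626 and 799 at days 21 and 42 without TGF-beta3, 628 and 781 with it and 461 when loaded. It was low at day 3 and in the loaded construct, where it was 1.69-fold lower than in the unloaded one, and its TGF-beta3 differences were log2 0.00 and -0.03. Its second probe set did not match this: it was above the floor only at days 21 and 42 with TGF-beta3 in the unloaded constructs, at 33.1 and 46.3. Those differences were at least log2 1.13 and 1.61, past 2-fold on both days, with a mean of 1.37 ± 0.58 (standard error, adjusted p = 0.116 by limma). The second PSMC6 probe set also differed from the brightest, at log2 -0.82 against -0.07 with TGF-beta3 at day 42, and the second PSMC2 probe set had 0.08 against -0.03. From day 3 to day 21 without TGF-beta3, 5 of the 6 ATPases were above 0 with a median of log2 0.49. PSMC4 (Rpt3) had the largest positive difference of all members there, with signals of 337 at day 3, 560.1 and 504 at days 21 and 42 without TGF-beta3, 383 and 419.8 with it and 437 when loaded. It was lowest at day 3, and both values with TGF-beta3 in the unloaded constructs lay below those without it on the same days. The spikes of the day 21 and day 3 pair shifted by -0.45.

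The non-ATPase subunits of the 19S particle recognise and trim ubiquitin, and PSMD4 and PSMD13 departed from the other 5 measured. PSMD4 (Rpn10), a ubiquitin receptor, had signals of 292 at day 3, 140.1 and 224 at days 21 and 42 without TGF-beta3, 152 and 621 at days 21 and 42 with it, and 422 when loaded. It was highest on both day 42 arrays with TGF-beta3 and low on both day 21 arrays. A second PSMD4 probe set had the same order among the 3 arrays with TGF-beta3, at 148, 511 and 307. From day 21 to day 42 with TGF-beta3, PSMD4 was 4.07-fold higher (log2 2.03, and 1.79 on the second probe set), on arrays whose spikes shifted by 1.24. At day 42 it was 2.78-fold higher with TGF-beta3 than without, but at day 21 1.09-fold, and over both days its adjusted p was 0.247 by limma. When the day 21 array with TGF-beta3 was left out, with no term for day, its mean difference was log2 1.81. That fit sets 1 day 42 array with TGF-beta3 against days 21 and 42 without it, so TGF-beta3 and day are mixed. When the unloaded day 42 array with TGF-beta3 was left out instead, the mean difference of PSMD4 was -0.22. With the arrays centred on their spikes the day 42 difference with TGF-beta3 was 0.15, and that between days 42 and 21 with TGF-beta3 was 0.84.

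PSMD13 (Rpn9), a lid subunit, was dim. Its signals were 66.8 at day 3, 65.5 and 116 at days 21 and 42 without TGF-beta3, 80.4 and 190.1 with it and 94.8 when loaded. It was 2.37-fold higher at day 42 than at day 21 with TGF-beta3, and the unloaded day 42 array was the only one above 116. PSMD11 (Rpn6), which clamps the core to the cap, went the other way there, with signals of 480 at day 3, 662 and 830.2 at days 21 and 42 without TGF-beta3, 779.9 and 426 with it and 722 when loaded. It was lowest on that same array, 1.95-fold below the one without TGF-beta3. The scaffold PSMD1 and the deubiquitinase PSMD14 were each 1.64-fold lower with TGF-beta3 at day 42, and 1.01-fold lower and 1.01-fold higher at day 21. The second, dim PSMD6 probe set differed by log2 0.37 and -0.46 with TGF-beta3, beside 0.43 and -0.42 for the brightest. In all, 5 of the 7 non-ATPase genes were below 0 at day 42, with a median of log2 -0.42.

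**Figure D4:**
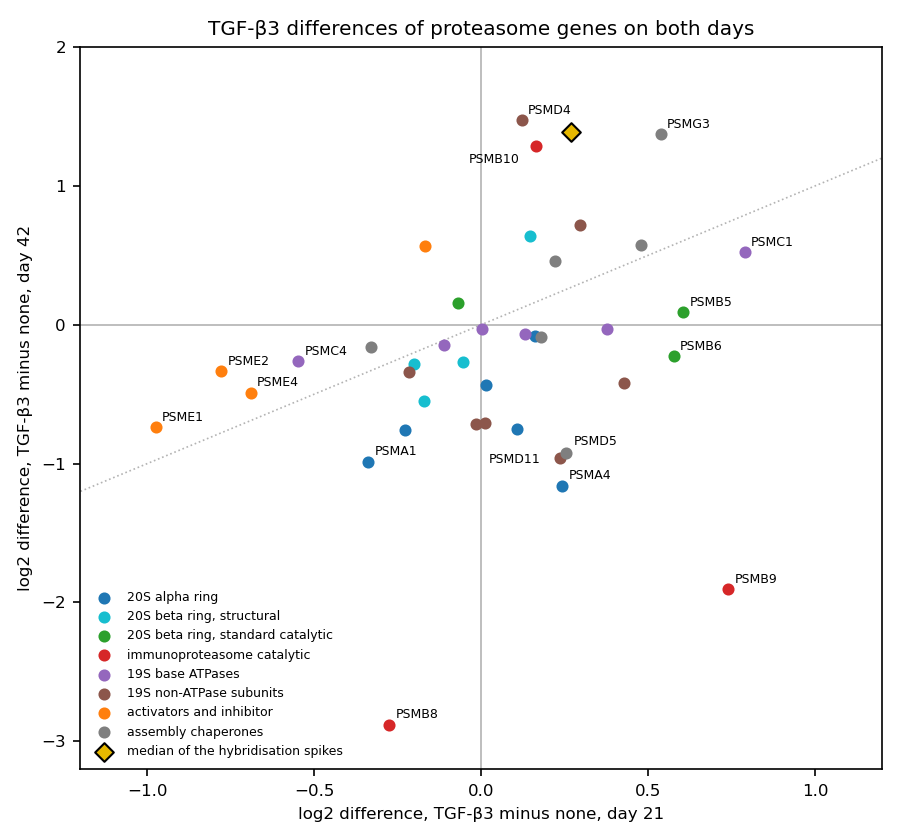
Log2 difference with TGF-beta3 at day 21 (horizontal axis) against that at day 42 (vertical axis) for the 39 proteasome genes, coloured by role, with the hybridisation spikes as a diamond; the dotted line marks equal differences. The activators PSME1, PSME2 and PSME4 lie below 0 on both axes, and PSMB8 and PSMB9 lie lowest at day 42.

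The activators open the core without the ATPase cap. PSME1 and PSME2 form the PA28 ring, which interferon induces, and PSME4 (PA200) is a nuclear activator. PSME1 had signals of 1400 at day 3, 1161 and 1447 at days 21 and 42 without TGF-beta3, 591 and 868 with it and 1602 when loaded. It was lowest on both unloaded arrays with TGF-beta3 and highest in the loaded construct, so the loaded array lay apart from the other arrays with the factor. PSME1 was 1.96-fold and 1.67-fold lower with TGF-beta3 at days 21 and 42. Its mean log2 difference, -0.86 ± 0.34 (standard error), had the smallest adjusted p of the members, 0.0856 by limma. That p was 0.0283 under quantile normalization, 0.0366 with the floor at a signal of 100, and between 0.00385 and 0.762 over the alternatives.

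PSME2, the partner of PSME1, had signals of 859, 754 and 1003 at days 3, 21 and 42 without TGF-beta3, 439 and 795 with it and 682 when loaded. It was lowest at day 21 with TGF-beta3, where it was 1.72-fold lower than without, and the arrays with and without TGF-beta3 overlapped. Unlike PSME1, it was not higher when loaded, with a log2 difference of -0.22 against 0.88, from 1 array on each side. PSME4 had signals of 709, 743 and 609 without TGF-beta3, 460.3 and 434 with it and 722 when loaded, and was lower by 1.61-fold at day 21 and 1.40-fold at day 42. PSME4 thus shared with PSME1 low values on both unloaded arrays with TGF-beta3 and a value in the loaded construct within or above the range without it. The core inhibitor PSMF1 (PI31) varied by 1.48-fold over the 6 arrays.

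Among the assembly chaperones, PSMG3 stood apart. PSMG1, PSMG2 and PSMG3 help build the alpha ring, and PSMD5, PSMD9 and PSMD10 help build the ATPase base. PSMG3 had signals of 109 at day 3, 94.3 and 112 at days 21 and 42 without TGF-beta3, 137 and 289.9 with it and 189 when loaded. All 3 arrays with TGF-beta3 lay above all 3 without it. It was higher by 1.45-fold at day 21 and 2.59-fold at day 42, with a mean log2 difference of 0.96 ± 0.53 (standard error, adjusted p = 0.247 by limma). With the arrays centred on their spikes its day 42 difference was 0.05. PSMG1 and PSMG2, which act as a pair, varied by 1.40-fold and 1.496-fold over the 6 arrays. PSMG2 had signals of 391 at day 3, 378 and 293 at days 21 and 42 without TGF-beta3, 301 and 261 with it and 312 when loaded, and was highest at day 3 and day 21 without TGF-beta3. PSMD5 was 1.90-fold lower with TGF-beta3 at day 42 and PSMD10 (gankyrin) 1.49-fold higher.

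Compression left the members close to the unloaded construct. Of 38 compared, none was at least 2-fold higher and 1, PSMD13, was 2-fold lower, where 8.41% of 7703 genes were higher and 7.41% lower. Among bright genes this was 0 of 36 members in either direction beside 5.19% of 3834 genes. Their median log2 difference was -0.02, beside -0.04 for all genes, -0.39 for the spikes and -0.43 for ribosomal protein genes. The 3 highest were PSME1, PSMD11 and PSME4 (1.85-fold, 1.70-fold and 1.66-fold), and the 3 lowest above the floor PSMD13, PSMC5 and PSMB7 (2.005-fold, 1.69-fold and 1.65-fold). There is no replicate check on these differences.

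Time in culture was set out in the same way. From day 21 to day 42 with TGF-beta3, 3 of 39 members were at least 2-fold higher (PSMD4, PSMD13 and PSMG3) and none lower, where 19.7% of 7474 genes were higher and 11.1% lower. Among bright genes 2 of 36 members differed by 2-fold in either direction, beside 17.1% of 3653 genes. The members' median was log2 0.06 while the spikes shifted by 1.24. From day 3 to day 21 without TGF-beta3, 3 were at least 2-fold lower (PSMB8, PSMB9 and PSMD4) and none higher, where 4.72% of 6759 genes were lower and 7.03% higher. Among bright genes this was 1 of 35 members in either direction beside 5.63% of 3750 genes. Their median was log2 0.06, with PSMC4, PSMB5 and PSMB7 the 3 highest at 1.66-fold, 1.55-fold and 1.55-fold. The comparisons with day 21 and day 42 share arrays with those of TGF-beta3, so their values are not independent of them.

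Genes that work with the proteasome gave few larger differences. Of 7 proteasome partners, 9 genes of ubiquitin supply and delivery and 6 regulators tested, none passed the limma test in either direction. At an unadjusted p under 0.05 by limma the partner PAAF1 was higher and the regulators NFE2L1 and NFE2L2 were lower. NFE2L1 (NRF1), the transcription factor that raises proteasome genes when proteasome activity falls, had signals of 709.6 at day 3, 765 and 716 at days 21 and 42 without TGF-beta3, 440.0 and 435 with it and 456 when loaded. All 3 arrays with TGF-beta3 lay below all 3 without it. Its log2 differences were -0.80 and -0.72 at days 21 and 42 (adjusted p = 0.152 by limma). NFE2L2 (NRF2), which responds to oxidative stress, had log2 differences of -0.50 and -1.14 (adjusted p = 0.159 by limma).

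POMP, the maturation factor of the core, stayed between 2880 and 3786, and the deubiquitinase USP14 between 421 and 794. The ubiquitin receptor ADRM1 was dim, from 24.5 to 115, and was higher by log2 0.81 and 0.56 with TGF-beta3 at days 21 and 42. PAAF1, which binds the ATPases, was the only partner past 2-fold on both days, higher by log2 1.03 and 1.78. The unfolding ATPase VCP, which delivers substrates, had log2 differences of -0.14 at day 21 and -1.196 at day 42, and the shuttle UBQLN4 one of -1.59 at day 42. The ubiquitin-binding autophagy receptor SQSTM1 had log2 differences of -0.62 and -0.63, with adjusted p = 0.257 by limma.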

How the data were processed

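Total RNA of 6 constructs was hybridised to 1 bovine Affymetrix array each. The authors deposited linear signal intensities. Per the submitters' processing notes these are MAS5 values, with no version stated. The deposited intensity of every array had a trimmed mean near 150. Of 24128 probe sets, 112 controls were left out; 13292 had 1 gene symbol, 86 several and 10638 none. All 39 members matched RefSeq by Entrez identifier, used for names and neighbouring genes only.

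Values under the floor, 15.1427 (percentile 40 of all values), were set to it and log2 was taken. With 1 array on each side no test was possible, and a gene was counted as higher or lower at 2-fold or more. TGF-beta3 was tested with limma 3.58.1 in R 4.3.3 (lmFit and eBayes with a trend, day as a term, Benjamini-Hochberg adjustment over 14839 probe sets, threshold 0.05), and the script was tested on simulated data. Nothing in the labels says how many animals or constructs an array holds. The p-values of the main fit rest on how far the TGF-beta3 difference changed between the days, pooled over probe sets. That spread holds no replicates and may be in part technical. Tables were made with pandas 2.3.3 and numpy 2.4.6 under Python 3.11.15, and plots with matplotlib 3.10.9.

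Signals on all arrays were given by rule for the 3 highest and 3 lowest members of a comparison, catalytic subunits and activators; of the partner, regulator and interferon genes, for those past the test, the extremes and NFE2L1, POMP, ADRM1 and USP14. The members, lists and tests were chosen with earlier results of these data known. Other scalings, floors, probe set rules, size rules and sets of arrays were tried.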

Additional observations from a re-analysis of the deposited data

Results flagged for a closer look

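PSMB9 differed in direction between days: its log2 difference with TGF-beta3 against none was 0.74 at day 21 and -1.9 at day 42, and the difference was not tested. PSMB8 differed in direction between media: from day 21 to day 42 its log2 difference was -0.83 with TGF-beta3 and 1.77 without it, and the difference was not tested. PSMB9 did the same, with -0.75 with TGF-beta3 and 1.89 without it, and the difference was not tested. These values share arrays, and those of PSMB9 with TGF-beta3 at day 42 are at the floor.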

How the results depend on the processing

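No pairing by donor was possible, because each condition had 1 array and the labels do not say which donors it holds. The limma fit paired arrays only by day, through its term for day. Counts are of members at least 2-fold different unless said. Where no percentage follows a count, the share of all genes is not given here. With TGF-beta3 at day 42, median centring gave a median of -0.85 beside -0.32 for all genes, with 0 higher and 15 lower. Spike centring gave -1.58 beside -1.06 for all genes, with 0 higher and 30 lower (51.8% of all genes), and PSMB10 at -0.036. The floor at 100 gave 1 lower. With the loaded array instead, chosen after seeing the data, 0 were higher. At day 21, 1 was lower under quantile normalization and 2 under spike centring (19.96% of all genes). From day 21 to 42 with TGF-beta3, spike centring gave a median of -1.13, 0 higher and 25 lower (48.7% of all genes), with PSMG3 at -0.10. Median centring gave 1 higher and 4 lower, where the median of all genes was -0.11. In that comparison 1 was lower under quantile normalization, the floor at 5.38 and the median of probe sets. Without TGF-beta3, 5 were higher from day 21 to 42 under median centring, where the median of all genes was 0.41. In the same comparison 1 was higher with the floor at 55.5 and 0 at 100. From day 3 to 21, 6 were higher under spike centring (20.5% of all genes) and 1 lower with the floor at 100. Under loading, spike centring gave 3 higher and 0 lower (13.8% and 2.54% of all genes), the floor at 5.38 gave 1 higher, the floor at 100 0 lower and the median of probe sets 2 lower. At 1.5-fold, with the percentages of all genes in brackets, higher and lower were 3 and 3 (26.7 and 23.03) with TGF-beta3 at day 21, 5 and 11 (37.7 and 23.7) at day 42, 3 and 4 (18.5 and 18.8) under loading, 6 and 6 (33.5 and 20.3) from day 21 to 42 with TGF-beta3, 3 and 4 (17.3 and 13.2) from day 3 to 21, and 5 and 0 (13.0 and 14.6) from day 21 to 42 without it. At 3-fold, 0 were higher with TGF-beta3 at day 42, 0 lower under loading and 1 higher from day 21 to 42 with TGF-beta3. By limma, 1 fell under quantile normalization (8.43% of genes) and 1 under spike centring (8.06%), and 1 rose and 1 fell with the floor at 100. Leaving out 1 array, 0 to 3 rose and 0 to 2 fell. The cause was not tested; the higher floors and the 3-fold rule count fewer genes by construction. Signal over background limits PSMB9 and PSMB8.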
